A study of Notophthalmus viridescens with 18 samples.

Results

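A group of 9 transcripts of the Ras and MAP kinase cascade were followed in RNA-seq libraries of A1, a myogenic limb cell line of the newt Notophthalmus viridescens. They were Hras, Map3k3.1, Map3k3.2, Map3k3.3, Map3k7, Mapk8, Mapk8ipl, Mapk4 and Jund, 9 of the 27395 entries quantified in every library. The members were chosen by their place in a panel of the study's supplementary heat-map table, which shows measured levels in myotubes treated with serum or with senescent-cell medium. The contrasts of that panel are therefore given as descriptions without a test. One more entry of the panel is not analysed here. Names follow the closest protein in another species.

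The 18 libraries fell into 6 groups of 3, all from the A1 line with no genetic change. PRO cells were cycling mononucleate cells given DMSO vehicle in 10% FCS and collected on day 12. For SEN cells, senescence was induced in 10% FCS by 24 h of DNA damage with 20 µM etoposide plus 1 µM of the p53 stabiliser nutlin, followed by 11 days of nutlin only at the same dose, up to day 12. Myotubes (MT) were formed over 5 days in 0.25% FCS, treated for 3 days and collected on day 8. The treatment was fresh 0.25% FCS in MT_0.25%, 10% FCS in MT_10%, and 0.25% FCS medium conditioned for 48 h by PRO or SEN cells in MT_0.25%_PRO_CM and MT_0.25%_SEN_CM. Myotubes were size-selected, passing a 100 µm filter and staying on a filter of 30 µm by the labels (the methods text gives another mesh), whereas PRO and SEN cells were not. The labels do not say whether the 3 libraries of a group came from separate cultures, so p-values measure the spread between these libraries, which may be technical.

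In animal cells a growth factor receptor switches on a Ras GTPase, and the signal passes through a MAP kinase kinase kinase (MAP3K) and a MAP kinase kinase to a MAP kinase such as ERK or JNK. Scaffold proteins hold the kinases of a branch together, and MAP kinases phosphorylate transcription factors, among them the Jun family. In newt myotubes the question put to these transcripts is whether the components downstream of growth factor receptors are expressed when the cells are exposed to serum or to factors from senescent cells. Kinase activity depends on phosphorylation, which transcript levels do not measure.

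The libraries held 20609828 to 62991718 estimated reads, lowest in MT_10% replicate 1 and highest in MT_10% replicate 2. Library scaling factors (TMM, which adjusts totals for the share taken by a few abundant transcripts) were 0.617 to 0.710 in PRO, 1.21 to 1.37 in SEN, 1.09 to 1.51 in MT_0.25%, 1.13 to 1.26 in MT_10%, 0.866 to 0.919 in MT_0.25%_PRO_CM and 0.750 to 0.976 in MT_0.25%_SEN_CM. The summed CPM of 5 myotube markers (Myog, Ckma, Myh3.1, Myh3.3, Symhc1.1) was 31.0 to 66.6 in PRO and SEN libraries and 515 to 1115 in myotube libraries. Among myotubes it was 769 to 1115 in MT_0.25% and 801 to 934 in MT_10%. It was lower with conditioned medium, at 515 to 645 in MT_0.25%_PRO_CM and 557 to 607 in MT_0.25%_SEN_CM. The summed CPM of 6 cycling markers (Ccnb1, Ccnb2, Cdk1a, Cdc20, Mcm7, Aurkba) was 536 to 638 in PRO, 36.2 to 37.7 in SEN, 47.1 to 111 in MT_0.25%, 374 to 406 in MT_10%, 31.5 to 44.7 in MT_0.25%_PRO_CM and 97.5 to 126 in MT_0.25%_SEN_CM. The myoblast factor Myf5 was at a mean of 439 CPM in PRO, 90.8 in SEN, 177 in MT_0.25% and 642 in MT_10%. Of the senescence markers, Mmp3/10a, Il6 and Csf1 together gave 166 to 266 CPM in SEN and 26.8 to 48.5 in PRO, while Lmnb1 and Hmgb2 together gave 8.91 to 15.4 in SEN and 32.3 to 36.0 in PRO. Il6 alone, at a mean of 1.00 CPM in SEN and 0.336 in PRO, was higher in MT_0.25% (1.86) and MT_0.25%_PRO_CM (1.80). Myf5 was thus not lower in MT_10% than in PRO.

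All 9 members passed the filter on low counts, as did 23107 entries in all. The level of a member between groups is given below as CPM, estimated reads scaled to a common TMM-adjusted library total, in the order of replicates 1, 2 and 3. Levels between members are given as TPM, which is scaled for length. By median TPM over the 18 libraries, Map3k7 (49.96 TPM) and Jund (21.2 TPM) were the most abundant, above 92.3% and 84.8% of tested entries. Hras was at 3.33 TPM, Map3k3.2 at 2.31, Mapk8ipl at 1.67 and Mapk4 at 1.46. Mapk8 (0.741 TPM), Map3k3.1 (0.556 TPM) and Map3k3.3 (0.1498 TPM) were the lowest, the last above 4.98% of tested entries. Counts behind the low members were small: 6, 6 and 8 reads for Mapk4 in PRO and 8 to 17 reads for Map3k3.3 in MT_10%.

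**Figure D1:**
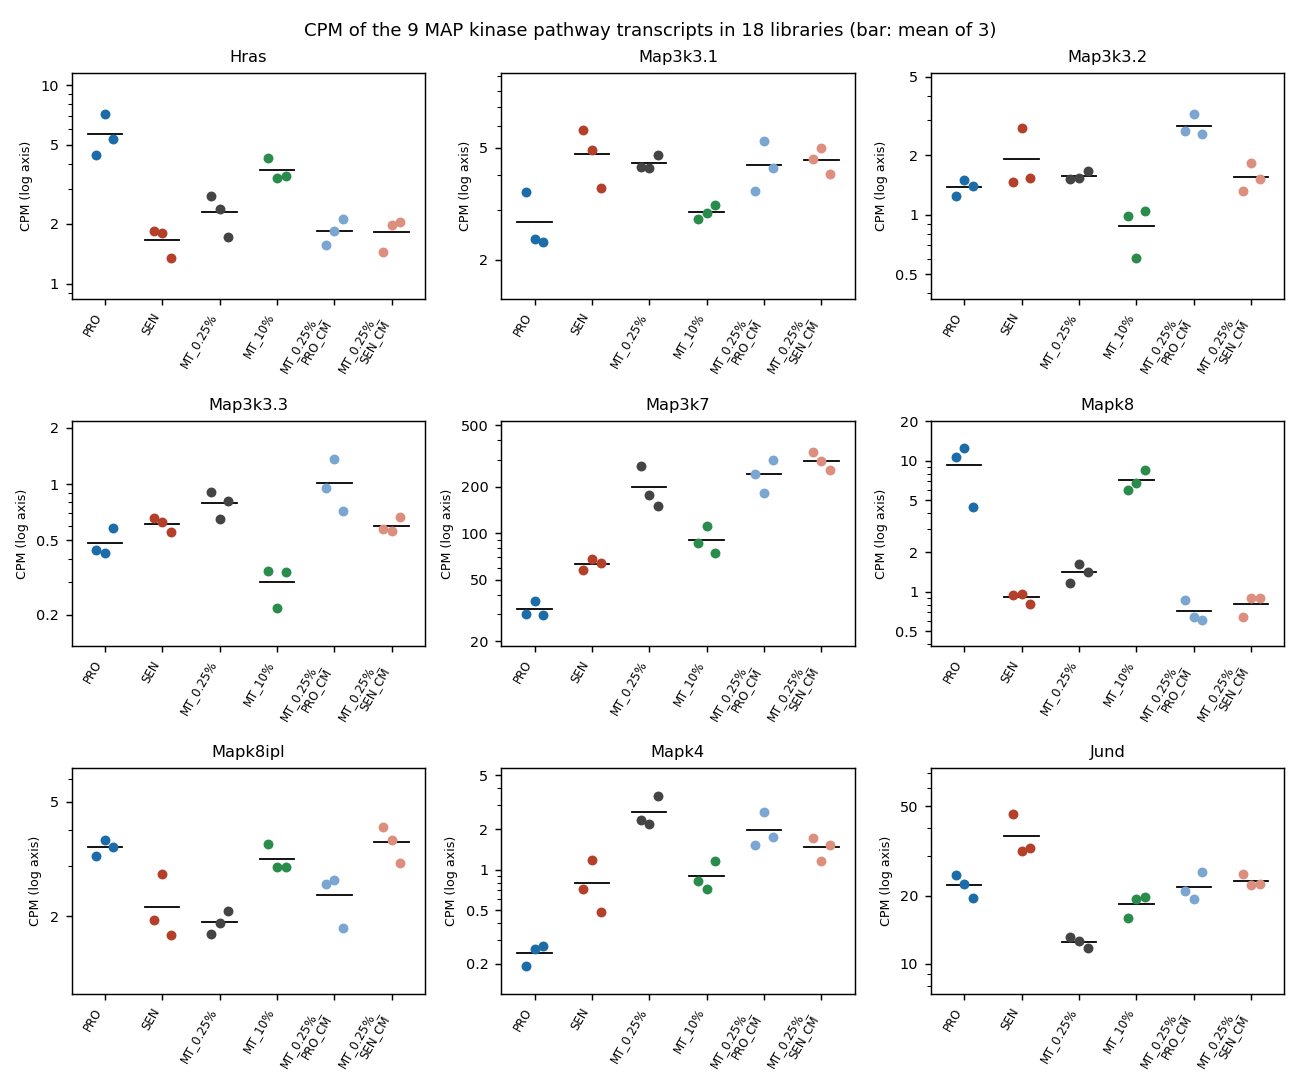
CPM of each of the 9 transcripts (logarithmic axis) in every library of the 6 groups, with a bar at the mean of 3 libraries. Mapk8 and Hras were highest in PRO and MT_10%, Mapk4 and Map3k7 were lowest in PRO, and Jund was highest in SEN.

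Between senescent and proliferating cells the members moved in both directions. Mapk8, Hras and Mapk8ipl fell in SEN, whereas Mapk4, Map3k7, Map3k3.1 and Jund rose, so 7 of 9 were called (edgeR quasi-likelihood test, Benjamini-Hochberg adjusted p under 0.05 over all entries). Of all tested entries 50.9% were called in this comparison, 28.2% higher and 22.6% lower. In bulk RNA, fewer cells of a type and less RNA of a transcript per cell cannot be told apart. None of these libraries is in the contrasts shown by the panel. The ranges of CPM did not overlap for 7 of 9, beside 55.9% of all entries. The median log2 fold change of the members was 0.47, beside 0.27 over all tested entries. The median size of change, regardless of direction, was 0.80 for the members and 0.79 for all entries.

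Between MT_0.25% myotubes and PRO cells 7 of 9 members were again called, beside 69.7% of all tested entries. Map3k7, Mapk4 and Map3k3.1 rose, and Mapk8, Hras, Jund and Mapk8ipl fell. The MT_0.25% libraries are also in the serum contrast of the panel, so these calls are not fully independent of the choice of members. The PRO libraries are shared with the comparison of SEN and PRO. The ranges overlapped for none of the 9, beside 70.8% of all entries without overlap. The share of members called was thus close to the background. The median log2 fold change was 0.19 for the members and 0.20 for all entries, and its median size was 0.86 for the members, below 1.15 for all entries.

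Between MT_10% myotubes and PRO cells 3 of 9 members were called, beside 51.0% of all tested entries: Mapk4 and Map3k7 rose and Hras fell. The MT_10% libraries are shared with the serum contrast of the panel, so these calls are not fully independent of the choice of members. Ranges did not overlap for 5 of 9, beside 57.3% of all entries. The median log2 fold change was −0.28 for the members and 0.15 for all entries. With medium from proliferating cells against fresh 0.25% FCS 3 of 9 members were called, beside 24.5% of all tested entries: Jund and Map3k3.2 rose and Mapk8 fell. Ranges did not overlap for 3 of 9, beside 37.3%. Both groups of this comparison are in contrasts of the panel, so the 3 calls are not independent of the choice of members. Without MT_0.25% replicate 2, MT_0.25% replicate 3 or MT_0.25%_PRO_CM replicate 2, each left out alone, 1 of the 3 calls was left, that of Jund.

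**Figure D2:**
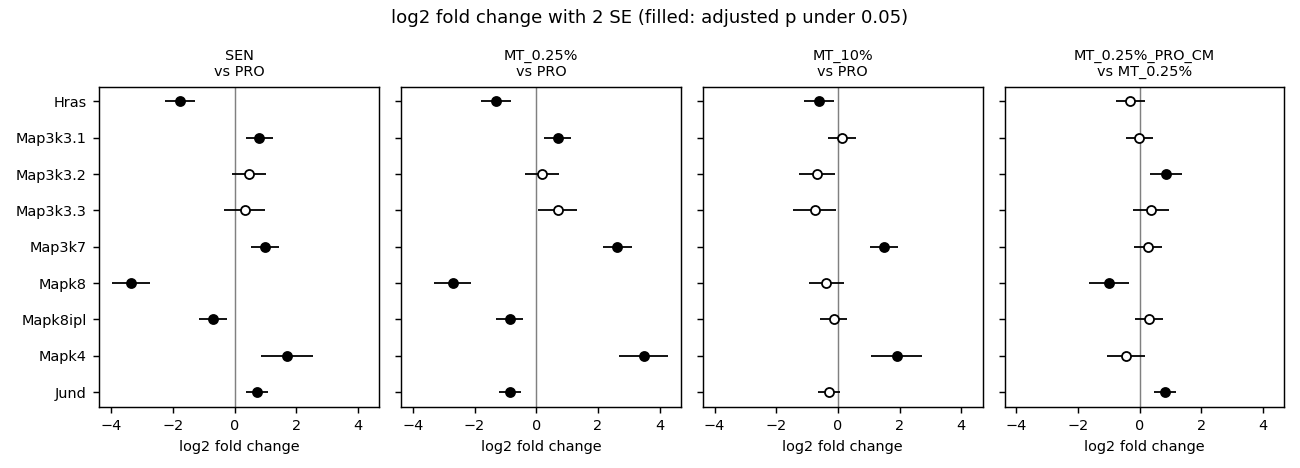
Log2 fold change of each member in the 4 tested comparisons, with bars of 2 standard errors and filled points where the adjusted p was under 0.05. Mapk8 was far below 0 against PRO in SEN and MT_0.25% (−3.35 and −2.71) but not in MT_10% (−0.38), and Mapk4 and Map3k7 were above 0 in all 3 comparisons with PRO.

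These directions refer to TMM-scaled counts. On the authors' TPM the whole distribution moved: the median log2 fold change of all tested entries was 0.63 for SEN against PRO, 0.76 for MT_0.25% against PRO, 0.54 for MT_10% against PRO and −0.31 for MT_0.25%_PRO_CM against MT_0.25% (limma on log2(TPM + 1)), where TMM-scaled counts gave 0.27, 0.20, 0.15 and −0.04. The share of all calls that were higher was 94.7%, 89.2%, 92.9% and 15.2% on TPM and 55.5%, 54.5%, 52.5% and 48.8% on counts. RLE scaling of the counts moved the median by −0.12, −0.08, −0.11 and 0.02. Fold changes on TPM given with the members are on the log2(TPM + 1) scale, which understates changes of low entries. Changes of the members are therefore also given relative to the median of all tested entries, and changes of sign on TPM are given with them.

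Hras (comp72887_c0_seq1) encodes a small GTPase at the head of the cascade. Its CPM was 4.46, 7.18 and 5.39 in PRO and 1.83, 1.81 and 1.34 in SEN. Myotubes in fresh medium (MT_0.25%) held 2.76, 2.39 and 1.72, those in serum (MT_10%) 4.29, 3.41 and 3.48, those with medium of proliferating cells (PRO_CM) 1.57, 1.84 and 2.13 and those with medium of senescent cells (SEN_CM) 1.44, 1.97 and 2.05. Every PRO library lay above every other library, every MT_10% library lay above the remaining 12, and the 4 lower groups overlapped with their neighbours in the order of means. In SEN, Hras fell by 1.77 (SE 0.25) on the log2 scale, a 3.41-fold difference (adjusted p = 6.24e-06), and in MT_0.25% its log2 fold change was −1.31 (SE 0.24, adjusted p = 6.41e-05). Set against the median of all entries, these changes were −2.03 and −1.52.

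In MT_10% the mean of Hras was 65.7% of that in PRO, or −0.61 on the log2 scale (SE 0.24, adjusted p = 0.0364, edgeR). This call was lost in 4 of the 6 fits that left out 1 library, without PRO replicate 2 or 3 or MT_10% replicate 2 or 3, where the adjusted p reached 0.192. On TPM the values were 3.46, 4.43 and 3.61 in PRO and 5.48, 5.30 and 5.57 in MT_10%, so the sign turned to 0.42. With the median of all entries subtracted it was −0.76 on counts and −0.12 on TPM. On TPM the fall in MT_0.25% was −0.02 and that in SEN was −0.43, with adjusted p of 0.934 and 0.0528 (limma). With the median of all entries subtracted these TPM values were −0.77 and −1.06. Against fresh medium, medium of proliferating cells gave −0.30 on the log2 scale (SE 0.24, adjusted p = 0.393, edgeR), and the ranges overlapped. On TPM Hras was called lower here (−0.55, adjusted p = 0.0338, limma), where the median of all entries was −0.31.

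In all, 3 entries carry the name Map3k3, a MAP3K that in mammals can activate several MAP kinase branches. The first is Map3k3.1 (comp80543_c1_seq2). Its CPM was 3.47, 2.36 and 2.32 in PRO and 5.77, 4.90 and 3.603 in SEN. Among myotubes, MT_0.25% libraries held 4.27, 4.24 and 4.72, those in serum (MT_10%) 2.79, 2.94 and 3.12, those with PRO_CM 3.50, 5.31 and 4.23 and those with SEN_CM 4.57, 4.98 and 4.05. The groups formed a higher set (SEN and the 3 myotube groups in 0.25% FCS, which overlapped) and a lower set (MT_10% and PRO, which overlapped). Map3k3.1 rose in SEN by 0.80 on the log2 scale (SE 0.22, adjusted p = 0.00532, edgeR) and in MT_0.25% by 0.69 (SE 0.22, adjusted p = 0.00921), both called in all 6 fits that left out 1 library. It did not pass the test in MT_10% against PRO (0.12, SE 0.23, adjusted p = 0.693) or after medium of proliferating cells (−0.02, SE 0.22, adjusted p = 0.958). Relative to the median of all entries the rise was 0.54 in SEN and 0.49 in MT_0.25% on counts, and −0.08 and −0.27 on log2(TPM + 1). On log2(TPM + 0.1), which flattens so low an entry less, the rise was 1.42 and 1.30, and relative to the median 0.24 and −0.07.

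Map3k3.2 (comp273737_c0_seq1) had its highest mean CPM after medium of proliferating cells. Its mean TPM was 2.84 there, below 4.05 in SEN and 3.39 in MT_0.25%. Its CPM was 1.24, 1.504 and 1.40 in PRO and 1.47, 2.75 and 1.54 in SEN. Myotubes in fresh medium (MT_0.25%) held 1.51, 1.53 and 1.66, those in serum (MT_10%) 0.988, 0.600 and 1.04, those with PRO_CM 2.65, 3.25 and 2.56 and those with SEN_CM 1.31, 1.82 and 1.52. All MT_10% libraries lay below all others, and all MT_0.25%_PRO_CM libraries lay above those of the 3 other myotube groups and of PRO, while 1 SEN library reached their range. The log2 fold change of MT_0.25%_PRO_CM against MT_0.25% was 0.85 (SE 0.26, adjusted p = 0.0235, edgeR). This call was lost without MT_0.25% replicate 2 or 3 or MT_0.25%_PRO_CM replicate 2 (adjusted p up to 0.0788), and the sign turned on TPM (−0.18), where the median of all entries was −0.31. In SEN (0.47, SE 0.28) and MT_0.25% (0.19, SE 0.28) Map3k3.2 did not pass the test against PRO, with adjusted p of 0.164 and 0.556 (edgeR). On TPM it was called higher in both, at 1.15 (adjusted p = 0.000431, limma) and 0.96 (adjusted p = 0.00133). Relative to the median of all entries these changes were 0.20 and −0.02 on counts and 0.52 and 0.20 on log2(TPM + 1). In MT_10% against PRO the difference was −0.68 on the log2 scale (SE 0.29, adjusted p = 0.0552), it passed with RLE scaling (−0.79, adjusted p = 0.0284) and with DESeq2 (−0.80, adjusted p = 0.0248), and on TPM the sign turned to 0.32.

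Map3k3.3 (comp74682_c0_seq1) had the lowest TPM of the 9. Its CPM was 0.446, 0.430 and 0.580 in PRO and 0.656, 0.629 and 0.556 in SEN. Among myotubes, MT_0.25% libraries held 0.911, 0.651 and 0.816, those in serum (MT_10%) 0.344, 0.217 and 0.340, those with PRO_CM 0.952, 1.36 and 0.717 and those with SEN_CM 0.575, 0.559 and 0.666. Like Map3k3.2 it had its lowest CPM in all 3 MT_10% libraries and its highest mean CPM after medium of proliferating cells. On counts, however, it was called in none of the 4 tested comparisons. The log2 fold changes were 0.33 (SE 0.33) in SEN, 0.69 (SE 0.32) in MT_0.25% and −0.75 (SE 0.35) in MT_10%, each against PRO, with adjusted p of 0.411, 0.0593 and 0.0838 (edgeR). After medium of proliferating cells it was 0.36 (SE 0.29, adjusted p = 0.386). On TPM it was called higher in SEN (0.15, adjusted p = 0.0494, limma) and in MT_0.25% (0.23, adjusted p = 0.00374), and in MT_10% the sign turned to 0.03. Relative to the median of all entries, SEN and MT_0.25% gave 0.07 and 0.49 on counts but −0.48 and −0.52 on log2(TPM + 1). On log2(TPM + 0.1), which flattens so low an entry less, the rises were 0.78 and 1.1, and relative to the median −0.4 and −0.27.

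Map3k7 (comp19277_c0_seq1), known as TAK1, is a MAP3K that in mammals acts below TGF-beta, BMP and inflammatory cytokine receptors and can activate the JNK branch. Its CPM was 30.2, 36.6 and 29.8 in PRO and 57.7, 68.5 and 64.7 in SEN. Myotubes in fresh medium (MT_0.25%) held 273, 176 and 150.2, those in serum (MT_10%) 86.2, 110.9 and 75.1, those with PRO_CM 240.7, 184 and 298 and those with SEN_CM 334, 292 and 257. PRO, SEN, MT_10% and the 3 myotube groups in 0.25% FCS formed 4 levels with no overlap between them, and the 3 groups in 0.25% FCS overlapped with their neighbours. Against PRO, Map3k7 rose in SEN by 0.98 on the log2 scale (SE 0.23, adjusted p = 0.00127, edgeR), in MT_0.25% by 2.63 (SE 0.24, adjusted p = 6.91e-09) and in MT_10% 2.82-fold (SE 0.23 on the log2 scale, adjusted p = 1.76e-05).

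Relative to the median of all entries, the changes of Map3k7 were 0.72, 2.43 and 1.34 on counts and 1.39, 2.95 and 1.91 on log2(TPM + 1), so it stood above the median under both scalings in all 3 comparisons with PRO. All 3 calls held in each of the 6 fits that left out 1 library. The change after medium of proliferating cells was 0.27 (SE 0.23, adjusted p = 0.410). It was called only without MT_0.25% replicate 1, the highest library of its group (0.62, adjusted p = 0.0394), and turned to −0.13 on TPM.

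Mapk8 (comp133032_c0_seq1) encodes the MAP kinase known as JNK1, which phosphorylates Jun transcription factors. Its CPM was 10.7, 12.6 and 4.43 in PRO and 0.946, 0.970 and 0.807 in SEN. Among myotubes, MT_0.25% libraries held 1.17, 1.62 and 1.43, those in serum (MT_10%) 6.01, 6.82 and 8.46, those with PRO_CM 0.875, 0.645 and 0.615 and those with SEN_CM 0.639, 0.899 and 0.906. PRO and MT_10% overlapped, since PRO replicate 3 lay below all MT_10% libraries, and both groups lay above the 12 other libraries. In SEN, Mapk8 fell by 3.35 (SE 0.31) on the log2 scale, a 10.2-fold difference (adjusted p = 4.71e-08, edgeR), and in MT_0.25% it fell by 2.71 (SE 0.30), a 6.52-fold difference (adjusted p = 1.08e-07).

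Leaving out 1 library at a time gave −3.69 to −3.07 for SEN and −3.05 to −2.43 for MT_0.25%, and Mapk8 stayed called in all of them. Set against that median, the changes were −3.62 and −2.91 on counts and −1.89 and −1.67 on log2(TPM + 1). In MT_10% the mean was 76.6% of that in PRO, or −0.38 on the log2 scale (SE 0.28, 2 SE around it −0.93 to 0.17, adjusted p = 0.262). Without PRO replicate 3 it was −0.71 (adjusted p = 0.0123), and on log2(TPM + 1) it turned to 0.66 (adjusted p = 0.0255, limma). After medium of proliferating cells Mapk8 fell by 0.99 (SE 0.32, adjusted p = 0.0291, edgeR). That call was lost in 4 of 6 fits that left out 1 library, without MT_0.25% replicate 2 or 3 or MT_0.25%_PRO_CM replicate 2 or 3, where the adjusted p reached 0.112.

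Mapk8 and Hras, high in PRO and MT_10%, were set beside transcripts of dividing cells. The median level of 17 proliferation transcripts of the study's heat-map table, relative to PRO, was 8.04% to 10.1% in SEN libraries, 8.70% to 22.4% in MT_0.25% and 62.8% to 70.2% in MT_10%. Mean Mapk8 was 9.79%, 15.2% and 76.6% of PRO in these groups, and mean Hras 29.3%, 40.3% and 65.7%. With senescent-cell medium the proliferation list was at 18.9% to 23.9% while Mapk8 was at 8.79%. As candidate carry-over markers of unfused cells, 13 other entries were taken whose mean CPM in MT_0.25% was lower than in PRO by a factor of 50 or more. Their low level in MT_0.25% was thus fixed by the choice. Their median was 2.82% to 8.79% of PRO in MT_10% and 12.4% to 27.6% in SEN. Since SEN cells are mononucleate too, the list varies with cell state and does not measure the share of unfused cells. The part of such cells in the results was not tested.

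**Figure D3:**
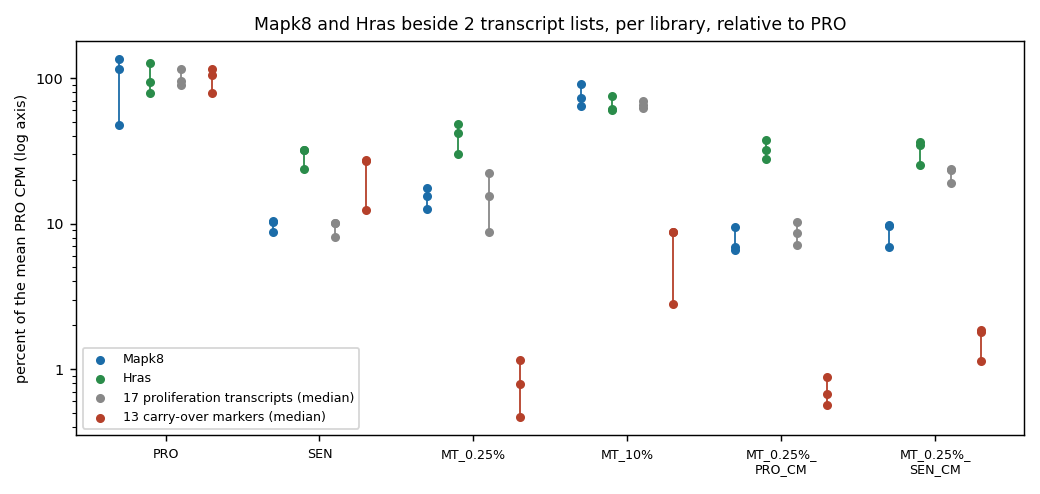
Mapk8, Hras, the median of 17 proliferation transcripts and the median of 13 carry-over markers in each library, as percent of the mean PRO CPM (logarithmic axis). In MT_10% Mapk8 (mean 76.6%), Hras (mean 65.7%) and the proliferation list lay near each other. The carry-over markers, chosen for a low level in MT_0.25%, lay at 2.82% to 8.79% in MT_10%.

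Mapk8ipl (comp31823_c1_seq2) is described in the study's table as the MAP kinase 8 interacting protein 1, which in mammals is a scaffold that assembles the JNK branch. Its CPM was 3.25, 3.70 and 3.48 in PRO and 1.95, 2.81 and 1.72 in SEN. Myotubes in fresh medium (MT_0.25%) held 1.74, 1.89 and 2.09, those in serum (MT_10%) 3.56, 2.98 and 2.96, those with PRO_CM 2.60, 2.68 and 1.82 and those with SEN_CM 4.09, 3.69 and 3.06. MT_0.25%_SEN_CM, PRO and MT_10% overlapped and lay above MT_0.25%_PRO_CM, SEN and MT_0.25%, which overlapped. In SEN, Mapk8ipl fell by 0.69 (SE 0.23, adjusted p = 0.0145, edgeR), a call lost without SEN replicate 1 or SEN replicate 3 (adjusted p of 0.0548 and 0.0737). In MT_0.25% it fell by 0.86 (SE 0.22, adjusted p = 0.00208), and was not called in MT_10% (−0.14, SE 0.22, adjusted p = 0.624) or after medium of proliferating cells (0.30, SE 0.22, adjusted p = 0.343).

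On TPM both falls of Mapk8ipl turned, to 0.22 in SEN and 0.72 in MT_0.25%. The rise in MT_0.25% was itself called on log2(TPM + 1) (limma, adjusted p under 0.05), opposite to the call on counts. The value in SEN was not called (adjusted p = 0.421, limma). The sign also turned in MT_10% (0.48) and after medium of proliferating cells (−0.45). The TPM values were 1.56, 1.11 and 1.43 in PRO and 1.73, 2.82 and 4.62 in MT_0.25%, with no overlap, while the deposited mean length of the entry was 289.5, 397 and 297 bases in PRO and 234, 209 and 166 in MT_0.25%. Relative to the median of all entries the changes stayed negative, −0.96 and −1.06 on counts and −0.41 and −0.04 on log2(TPM + 1).

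Mapk4 (comp148413_c2_seq9) encodes an atypical MAP kinase, known in mammals as ERK4, which lacks the activation motif of the classical ERK and JNK proteins. Its CPM was 0.191, 0.258 and 0.273 in PRO and 0.714, 1.18 and 0.484 in SEN. Among myotubes, MT_0.25% libraries held 2.32, 2.18 and 3.53, those in serum (MT_10%) 0.816, 0.715 and 1.16, those with PRO_CM 1.52, 2.68 and 1.74 and those with SEN_CM 1.73, 1.17 and 1.52. PRO lay below all other libraries, SEN and MT_10% overlapped at a middle level, and the 3 myotube groups in 0.25% FCS lay above MT_10%. SEN replicate 2 (1.180 CPM) slightly exceeded the lowest SEN_CM library (1.166 CPM), so these groups overlapped. Mapk4 rose against PRO in SEN by 1.69 on the log2 scale (SE 0.42, adjusted p = 0.00221, edgeR), in MT_0.25% by 3.48 (SE 0.40, adjusted p = 1.73e-07) and in MT_10% by 1.90 (SE 0.42, adjusted p = 0.000747). All 3 calls held in every fit that left out 1 library. These folds rest on 20 reads over the 3 PRO libraries, against 109 in SEN, 517 in MT_0.25% and 133 in MT_10%. On log2(TPM + 1) the changes were 0.71, 2.21 and 0.60, with adjusted p of 0.0595 in SEN and 0.116 in MT_10% (limma). Relative to the median of all entries they were 1.43, 3.27 and 1.74 on counts. On log2(TPM + 1), which understates changes of low entries, these relative changes were 0.08, 1.45 and 0.06. On log2(TPM + 0.1) the changes were 1.64, 3.72 and 1.41, and relative to the median 0.46, 2.35 and 0.38. After medium of proliferating cells the difference was −0.44 on the log2 scale (SE 0.31, adjusted p = 0.312), with overlapping ranges.

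Jund (comp7301_c1_seq1) encodes a Jun family transcription factor, a target of JNK. Its CPM was 24.8, 22.6 and 19.6 in PRO and 46.0, 31.7 and 32.5 in SEN. Myotubes in fresh medium (MT_0.25%) held 13.1, 12.6 and 11.8, those in serum (MT_10%) 15.97, 19.4 and 19.7, those with PRO_CM 21.0, 19.3 and 25.5 and those with SEN_CM 25.0, 22.4 and 22.7. All SEN libraries lay above and all MT_0.25% libraries below the others, and the 4 groups between them overlapped with their neighbours. Jund rose in SEN by 0.72 on the log2 scale (SE 0.18, adjusted p = 0.00206, edgeR) and in MT_0.25% it fell by 0.84 (SE 0.18, adjusted p = 0.000323), so SEN cells and MT_0.25% myotubes differed from PRO in opposite directions. Both calls held in all fits that left out 1 library.

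On TPM the rise of Jund in SEN was 1.82 and the fall in MT_0.25% turned to 0.20 (adjusted p = 0.463, limma). Relative to the median of all entries it was 0.45 in SEN and −1.04 in MT_0.25% on counts, and 1.19 and −0.56 on log2(TPM + 1). After medium of proliferating cells Jund rose by 0.81 on the log2 scale (SE 0.18, adjusted p = 0.00267, edgeR), called in all 6 fits that left out 1 library. On TPM this was −0.09 (adjusted p = 0.780, limma), and relative to the median of all entries it was 0.85 on counts and 0.21 on log2(TPM + 1). In MT_10% against PRO Jund was not called (−0.28, SE 0.18, adjusted p = 0.195, edgeR), and on TPM it turned to 0.68 (adjusted p = 0.0231, limma).

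The serum contrast belongs to those by which the panel was shown, so its values are a description. With 10% FCS against 0.25% FCS the difference was 2.33 on the log2 scale (SE 0.29) for Mapk8, 0.72 (SE 0.22) for Mapk8ipl, 0.70 (SE 0.24) for Hras and 0.56 (SE 0.18) for Jund. It was −1.58 (SE 0.32) for Mapk4, −1.44 (SE 0.32) for Map3k3.3, −1.14 (SE 0.23) for Map3k7, −0.87 (SE 0.28) for Map3k3.2 and −0.58 (SE 0.22) for Map3k3.1. The ranges of the 2 groups overlapped for none of the 9, beside 54.9% of all tested entries without overlap, and both MAP kinases, Mapk8 and Mapk4, lay on opposite sides of 0. On TPM the value of Mapk8ipl turned to −0.24. The largest of these values, that of Mapk8, was 2.19 to 2.44 with 1 library left out.

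The values with senescent-cell medium are likewise a description. Against medium of proliferating cells the difference was 0.61 on the log2 scale (SE 0.22) for Mapk8ipl, −0.86 (SE 0.27) for Map3k3.2 and −0.75 (SE 0.30) for Map3k3.3, the 3 members whose ranges did not overlap, beside 29.6% of all tested entries. The 6 others lay between −0.43 (Mapk4, SE 0.32) and 0.29 (Map3k7, SE 0.23), with Mapk8 at 0.20 (SE 0.34), Jund at 0.09 (SE 0.18) and Hras at −0.01 (SE 0.25). On TPM the sign turned for 5 members, to −0.15 for Mapk8ipl, −0.30 for Jund, −0.11 for Map3k7, −0.07 for Map3k3.1 and −0.01 for Mapk8, where the median of all entries was −0.20.

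Against fresh medium, senescent-cell medium gave 0.91 (SE 0.22) for Mapk8ipl, 0.90 (SE 0.18) for Jund, −0.87 (SE 0.31) for Mapk4 and −0.79 (SE 0.32) for Mapk8, the 4 members whose ranges did not overlap, beside 54.9% of all tested entries. Jund stood at a like distance from fresh medium with medium of proliferating cells (0.81) and of senescent cells (0.90), and so did Mapk8 (−0.99 and −0.79). These comparisons share the MT_0.25% libraries. Jund was at 19.3 to 25.5 CPM in the 6 libraries with conditioned medium and at 11.8 to 13.1 in those with fresh medium, and Mapk8 was at 0.615 to 0.906 and 1.17 to 1.62. On TPM the values of Mapk8ipl and Jund against fresh medium turned to −0.60 and −0.39, and those of Map3k7 (0.56, SE 0.23) and Map3k3.1 (0.04, SE 0.22) to −0.24 and −0.19, where the median of all entries was −0.55.

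**Figure D4:**
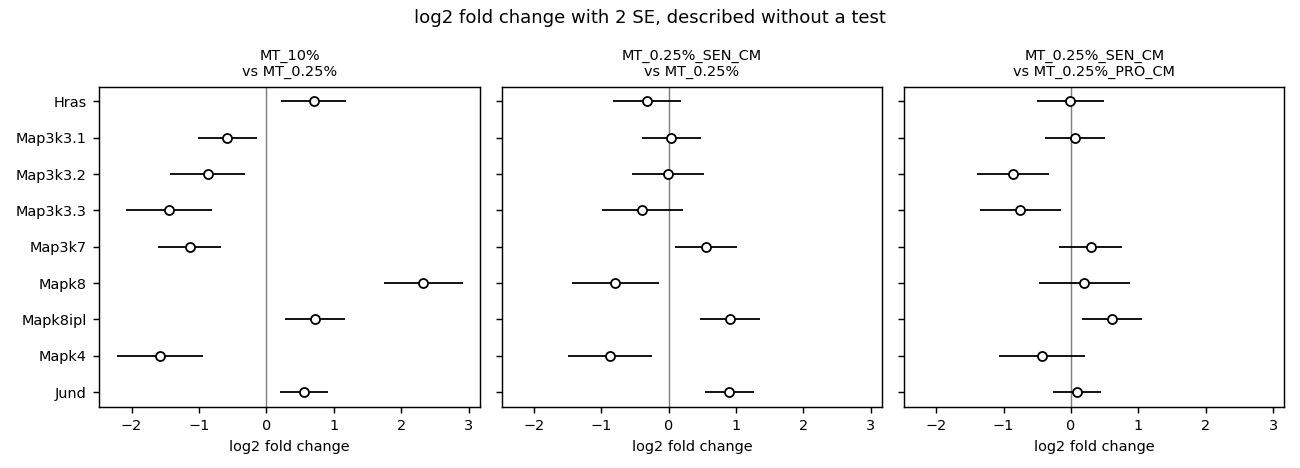
Log2 fold change of each member with serum and with senescent-cell medium, with bars of 2 standard errors, given without a test because the panel shows these contrasts. Mapk8 reached 2.33 with serum and lay at −0.79 with senescent-cell medium against fresh medium and at 0.20 against medium of proliferating cells.

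Each assembly component has 1 entry, and the deposited length of most entries differed between libraries. It was read here as a mean over the assembled sequences of the component, weighted by abundance. That reading was not checked. Hras (1233 bases) and Map3k3.3 (5375 bases) had the same length in every library. For 5 of the 9 (Mapk8, Mapk8ipl, Jund, Mapk4 and Map3k3.2) the longest deposited length was below the end of the reading frame listed for the named sequence, as for 38.7% of the 124 named transcripts of the table. Length was not used to choose the members and was examined after their levels were seen.

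Between SEN and PRO the lengths of 3 of the 7 entries with a variable length did not overlap, beside 32.7% of 18450 tested entries whose length varied by at least 1 base. These were Map3k3.1 (6155 to 7381 bases in SEN, 3548 to 5462 in PRO), Map3k3.2 (463 to 619 and 253 to 350.2 bases) and Mapk4 (463 to 618 and 306 to 402 bases), all longer in SEN. Between MT_0.25% and PRO 5 of 7 did not overlap, beside 53.4%. Map3k3.1 was longer in MT_0.25% (9242 to 9868 bases), while Mapk8ipl (166 to 234 and 289.5 to 397 bases), Jund (823 to 836 and 875 to 943 bases), Map3k7 (2277 to 3087 and 3130.5 to 3771 bases) and Mapk8 (513 to 530.7 and 531 to 532 bases) were shorter. The PRO length of Map3k3.1 thus lay below that of all other groups, whose lowest value was 5632 bases.

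Jund lengths fell into separate ranges in the myotube groups. They were 823 to 836 bases in MT_0.25%, 876 to 893 in MT_10%, 721 to 772 in MT_0.25%_PRO_CM and 719 to 749.6 in MT_0.25%_SEN_CM, so both conditioned media overlapped and lay below fresh medium, which lay below serum. Among myotubes, Map3k3.2 was longest with conditioned medium, at 592 to 659 bases in MT_0.25%_PRO_CM and 522 to 568 in MT_0.25%_SEN_CM, beside 323 to 435 in MT_0.25%. With medium of proliferating cells against fresh medium 3 of 7 lengths did not overlap, beside 29.0% of entries, and in MT_10% against PRO 2 of 7, beside 34.4%. With serum against fresh medium it was 3 of 7, beside 43.3%, with senescent-cell medium against medium of proliferating cells 2 of 7, beside 23.7%, and against fresh medium 5 of 7, beside 37.4%. No test of length was made.

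**Figure D5:**
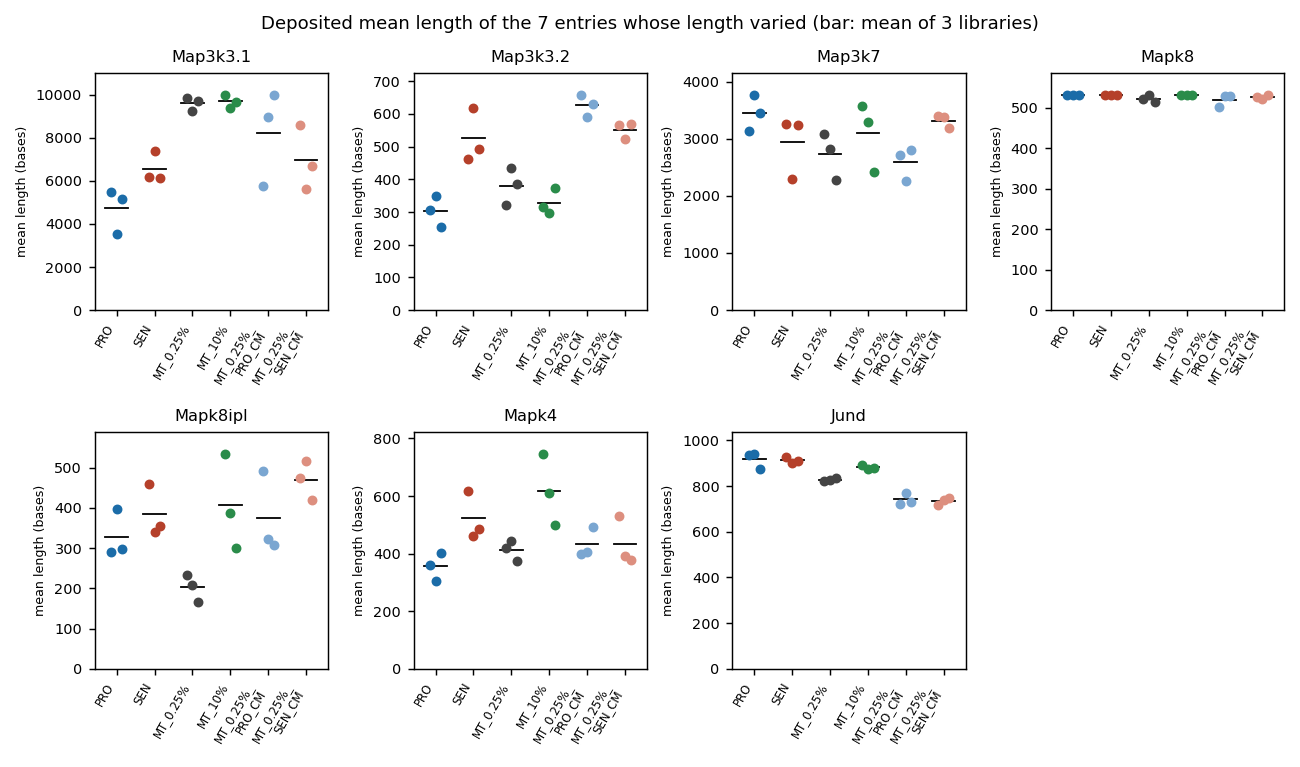
Deposited mean length in bases of the 7 entries whose length varied, in every library, with a bar at the group mean. Map3k3.1 was shortest in PRO, Mapk8ipl was shortest in MT_0.25% (166 to 234 bases), and Jund was shortest with conditioned medium (719 to 772 bases).

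For each member the transcript of the same table with the most similar group means was listed, by Pearson correlation of log2(CPM + 1) over the 6 groups, which share all libraries, as a description. Each is the highest of 122 candidates over only 6 means, so a high r can arise from the search alone. The nearest was Prim2, a subunit of DNA primase, for Mapk8 (r = 0.985), with means of 28.5 CPM in PRO, 3.95 in SEN, 4.66 in MT_0.25% and 25.0 in MT_10%. It was Mapk8 for Hras (r = 0.972) and Fen1, a flap endonuclease of DNA replication, for Mapk8ipl (r = 0.890). For Map3k7 it was Il8, a chemokine (r = 0.986), at 1.62 CPM in PRO and 5.51 in MT_0.25%. For Jund it was the coagulation factor F11 (r = 0.924), at 93.7 CPM in SEN and 19.2 in PRO.

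The low members had low counterparts. Map3k3.2 was nearest to Map3k3.3 (r = 0.912) and Map3k3.3 to Fgf8 (r = 0.937). Map3k3.1 was nearest to Fgf14 (r = 0.955), whose highest group mean was 0.228 CPM. Mapk4 was nearest to Myh11 (r = 0.977), whose highest group mean was 0.0828 CPM. Over the 6 groups Mapk8 and Map3k3.1 ran opposite (r = −0.98), as did Hras and Map3k3.1 (r = −0.97).

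FGF receptors signal through Ras, and 10 FGF and 5 FGF receptor entries of the same table were set beside the members. Fgf12, Fgf13 and Fgf14 are known in mammals as intracellular FGF homologous factors, which are not secreted ligands of these receptors. Fgf18 and Fgf24 did not pass the filter on low counts. In SEN against PRO, where the study's table shows the FGF entries, 6 of 8 tested were higher as a description. The median log2 fold change of all tested entries was itself above 0 here (0.27). The 6 include the intracellular factors Fgf12 and Fgf14, and Fgf9, whose ranges overlapped (0.39, SE 0.5). Of 5 receptors, 3 rose in SEN, beside the 28.2% of all entries called higher, with Fgfr1 at 10.8 ± 4.10 CPM (SD, n = 3) against 1.78 ± 0.606 in PRO (log2 fold change 2.60, SE 0.41, adjusted p = 2.53e-05, edgeR). Fgfr3.1, at 99.1 ± 23.2 CPM in PRO, was at 76.2 ± 22.2 in SEN and was not called (adjusted p = 0.179).

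The study sought secreted factors that rise on senescence and shows the FGF entries for PRO and SEN. Low PRO values may thus have favoured their choice. The same PRO libraries are the reference for MT_0.25% and MT_10% below, so these FGF calls are not independent of that choice. The myotube libraries are likewise in the contrasts that show the receptors. In MT_0.25% against PRO 7 of 8 FGF entries rose and 1, Fgf19, fell (−0.85, SE 0.33, adjusted p = 0.0280, edgeR), beside 38.0% of all entries called higher and 31.7% lower. Fgf14 had the largest rise (2.15, SE 0.84, adjusted p = 0.0282), at a mean of 0.161 CPM and with overlapping ranges. Fgf10, a secreted ligand, rose by 2.03 on the log2 scale (SE 0.26, adjusted p = 8.42e-07) without overlap. Of 5 receptors 2 rose and 2 fell. Fgfr2.2 rose from 6.16 ± 0.173 to 38.99 ± 8.34 CPM (2.66, SE 0.22, adjusted p = 1.18e-09, edgeR) and Fgfr3.1 fell from 99.1 ± 23.2 to 38.1 ± 9.04 CPM (−1.38, SE 0.24, adjusted p = 3.19e-05). Fgfr2.1 also rose (1.8, SE 0.2, adjusted p = 1.42e-07). Fgfr1 fell from a mean of 1.78 to 0.791 CPM (−1.13, SE 0.42, adjusted p = 0.0225), with overlapping ranges. In MT_10% against PRO 3 of 8 FGF entries and 2 of 5 receptors rose and 1 receptor fell, beside 26.8% of all entries called higher and 24.2% lower, led by Fgf7 (0.86, SE 0.19, adjusted p = 0.000708), Fgfr2.2 (2.89, SE 0.22, adjusted p = 1.01e-09) and Fgfr3.1 (−1.14, SE 0.24, adjusted p = 0.000397). With medium of proliferating cells 1 FGF entry rose, Fgf13 (0.68, SE 0.21, adjusted p = 0.0230, edgeR), and 1 fell, Fgf10 (−0.84, SE 0.24, adjusted p = 0.0151). In the same comparison 2 receptors fell, Fgfr1 (−1.49, SE 0.50, adjusted p = 0.0329) and Fgfr2.1 (−0.69, SE 0.19, adjusted p = 0.0117), beside 12.0% of all entries called higher and 12.5% lower. Fgfr1 was at low means of 0.285 CPM with this medium and 0.791 with fresh medium, and the ranges overlapped.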

How the data were processed

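The series holds 18 RNA-seq libraries, which the sample labels place in 6 groups of 3. The authors trimmed reads (Trim Galore, by the submitters' processing notes) and ran Sailfish separately on every library with a de novo newt transcriptome as the index, so no genome positions apply. The deposited estimated counts are reads assigned to each of 27395 entries, 1 entry per assembly component, not normalized and not whole in 59.0% to 74.8% of entries. TPM, also deposited, is the authors' length-scaled abundance. The deposited length of an entry differed between libraries for most entries, with 25.1% constant.

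Names came from the study's supplementary heat-map table. Each of its 124 names was paired with the 1 entry whose 18 scaled counts agreed within 1%, and the 9 members were the entries so paired. Members, lists and comparisons were chosen with earlier results of these data known.

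After rounding, the estimated counts went into edgeR 4.0.16 under R 4.3.3, using TMM scaling, a low-count filter by group (filterByExpr), 1 mean per group over all 18 libraries and quasi-likelihood tests, which left 23107 entries, with Benjamini-Hochberg adjustment over all of them and calls at 0.05. Each SE was obtained by dividing the log2 fold change by the root of the F statistic. Contrasts shown by the panel that named the members were not tested. Named besides the members were fixed markers, the called FGF entries with the largest change in each direction and the nearest transcript of each member. Fgfr3.1, Fgf9, Fgf12 and Fgf14 in SEN, Fgfr2.1 with medium of proliferating cells, Fgf10, Fgfr1 and Fgfr2.1 in MT_0.25%, Fgf18 and Fgf24 were named after their values were seen. Alternatives were RLE scaling, DESeq2 1.42.0, no filter on low counts, a fit of the 2 compared groups alone, a block for replicate number, fits without 1 library at a time, and limma 3.58.1 on TPM in log2 with a pseudocount of 1 or 0.1. The fits on TPM used no TMM or RLE scaling between libraries.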

Additional observations from a re-analysis of the deposited data

How the results depend on the processing

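With RLE scaling, DESeq2, no filter on low counts and only the 2 groups compared, 7 of 9 members were called in SEN and in MT_0.25% against PRO and 3 in MT_0.25%_PRO_CM against MT_0.25%, and in MT_10% against PRO 3 or 4. With 1 library left out the counts were 6 to 7, 7 to 7, 1 to 4 and 2 to 3 in the order SEN, MT_0.25%, MT_0.25%_PRO_CM and MT_10%. On log2(TPM + 1) the count for MT_0.25%_PRO_CM was 1, Hras, with the calls of Mapk8, Jund and Map3k3.2 lost. Same-numbered libraries of different groups did not all deviate together. Their correlations were −0.506 to 0.563 over 45 pairs (median −0.0366), beside −0.596 to 0.613 over 90 pairs with other numbers (median 0.0125). The median was thus not higher for same-numbered pairs, although 11 of 18 libraries were most alike to a library with their own number. This is a weak hint from the data and not from the design. With the replicate number as a block the counts of called members were 7, 7, 3 and 3 for SEN, MT_0.25% and MT_10% against PRO and MT_0.25%_PRO_CM against MT_0.25%, and no call changed.

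Of 468 alternative fold changes in the tested comparisons, 400 kept their direction and side of the threshold, 20 lost the call and 16 gained one with the direction kept, and 32 changed sign, whether called or not, 28 of them on TPM, where the scale of all entries moved. On log2(TPM + 1) and log2(TPM + 0.1) these were, in SEN against PRO, 0.22 and 0.33 for Mapk8ipl. In MT_0.25% against PRO they were 0.72 and 1.01 for Mapk8ipl and 0.20 and 0.21 for Jund. In MT_0.25%_PRO_CM against MT_0.25% they were −0.45 and −0.61 for Mapk8ipl, −0.09 and −0.10 for Jund, −0.18 and −0.23 for Map3k3.2, −0.00 and −0.04 for Map3k3.3, and −0.13 in both for Map3k7. In MT_10% against PRO they were 0.66 and 0.84 for Mapk8, 0.48 and 0.71 for Mapk8ipl, 0.42 and 0.50 for Hras, 0.68 and 0.71 for Jund, 0.32 and 0.50 for Map3k3.2, and 0.03 and 0.19 for Map3k3.3. Map3k3.1 in MT_0.25%_PRO_CM against MT_0.25% was 0.00 with RLE scaling and −0.19 to 0.11 with 1 library left out, with the sign changed in 3 of 6 such fits. The cause of these changes was not tested. In the described comparisons 316 values moved by less than the spread between replicates and 35 moved by more, 34 of them on TPM. Sums over entries of 1 component were not run, since each component has 1 entry. The shallowest library held 20609828 reads, and members with under 20 reads in a library (Mapk4 and Map3k3.3) are the least precise.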
